A study of Rattus norvegicus with 16 samples.

Results

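Among the 30560 genes listed for primary rat microglia, 373 had a lower level with lipopolysaccharide (LPS) and a higher one again when apolipoprotein A-I (ApoA-I) was present. They were chosen from group means of TPM (a transcript's share of all transcripts, corrected for its length). A gene had to reach 5 TPM in Control, fall by at least 1.5 log2 units with LPS, and lie at least 0.8 log2 units higher in LPS with ApoA-I than in LPS alone, on log2(TPM + 1). The Control minimum and the fall were met by 1100 genes, so 33.9% of LPS-lowered genes met the rise as well and 727 did not. Because these values chose the genes, these differences, called the fall and the rise here, are given as descriptions without a test.

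Wild-type primary microglia, the resident macrophages of the brain, were cultured to day 12 in vitro and measured by bulk RNA sequencing in 4 groups of 4 libraries. Control cells received neither agent. ApoA-I cells had 100 ug/ml ApoA-I protein in the medium, and LPS cells had 100 ng/ml LPS for 20 hours. The group LPS with ApoA-I had both, at these same concentrations. The labels do not say whether replicates came from separate cultures or animals, so p-values speak only of the spread between these libraries, and that spread may be technical. Genes carry Ensembl identifiers and no names, and the RefSeq table used here holds an Ensembl identifier for 0 of its 47357 genes. Markers of microglia or of other glial cells could therefore not be looked up, no gene could be tied to a pathway, and no promoter could be matched.

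LPS comes from the outer membrane of Gram-negative bacteria, and microglia sense it through Toll-like receptor 4. The response is known both for strong induction of inflammatory genes and for loss of transcripts typical of resting microglia. ApoA-I is the main protein of high-density lipoprotein and accepts cholesterol and phospholipid from cells through the transporter ABCA1. In bulk RNA, fewer cells that express a gene and less of its RNA per cell cannot be told apart.

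Total estimated counts were 12304916 to 17262383 per library, and 11902 genes had enough counts to be tested with edgeR. Of the 373 chosen genes, 364 were among these. Genes as a whole had lower TPM with LPS, with a median difference of -0.37 log2 units over all tested genes, against -0.04 in edgeR with TMM scaling. The medians for both agents against LPS alone were 0.13 and 0.03, those for both agents against ApoA-I alone -0.31 and -0.01, and those for ApoA-I against Control 0.06 and -0.00028. Differences in TPM therefore include these shifts. In ApoA-I against Control, edgeR called 508 of all tested genes, 775 without Control 4, 706 without ApoA-I 4 and 990 without both. It called 186 without ApoA-I 1, 202 without Control 3 and 284 without Control 1. The calls and the genes described in this comparison are also given without Control 4 and ApoA-I 4. That pair was chosen after the results were known, and leaving it out raised the number of calls. Adjusted p-values without it are therefore descriptions and no added support.

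The 373 genes together held 6.02% ± 0.148 of all TPM in Control and 5.86% ± 0.177 in ApoA-I libraries (SD, n = 4 each). Their share was 0.855% ± 0.0444 under LPS, and 2.22% ± 0.120 where both agents were given (SD, n = 4 each). By library, the share was 6.09%, 6.16%, 5.999% and 5.82% in Control and 5.74%, 5.68%, 6.01% and 6.02% in ApoA-I. It was 0.848%, 0.820%, 0.832% and 0.919% in LPS and 2.10%, 2.14%, 2.34% and 2.30% in LPS with ApoA-I. Control and ApoA-I libraries overlapped, every LPS library lay below every library with LPS and ApoA-I, and these lay below every library without LPS. As a share of estimated counts, without correction for length, the order of the lower groups was the same, at 0.921% ± 0.0611 under LPS and 2.31% ± 0.126 under both agents, against 6.12% ± 0.180 in Control and 6.16% ± 0.331 with ApoA-I alone (SD, n = 4 each).

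These sums rest on few genes. The most abundant of the 373 held 24.4% of their summed Control TPM, the 10 most abundant 55.4% and the 50 most abundant 79.9%. In LPS libraries the same genes held 21.8%, 58.2% and 79.7% of the sum, and in LPS with ApoA-I libraries 21.5%, 56.6% and 79.3%.

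The most abundant gene was at 15099, 14565, 15027 and 14112 TPM in the 4 Control libraries. It was at 11398, 12271, 11437 and 13002 TPM with ApoA-I alone. It was at 1876, 1721, 1814 and 2034 TPM in LPS and at 4439, 4583, 4916 and 5172 TPM in LPS with ApoA-I. All 4 groups were separate for this gene, and ApoA-I alone lay below Control. The second most abundant was at 3321, 3433, 3085 and 3130 TPM in Control and 2980, 3005, 3288 and 3184 TPM in ApoA-I libraries. It had 731, 731, 705 and 812 TPM in LPS and 1586, 1608, 1695 and 1622 TPM in LPS with ApoA-I. Control and ApoA-I overlapped for this second gene, and the other groups did not.

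**Figure D1:**
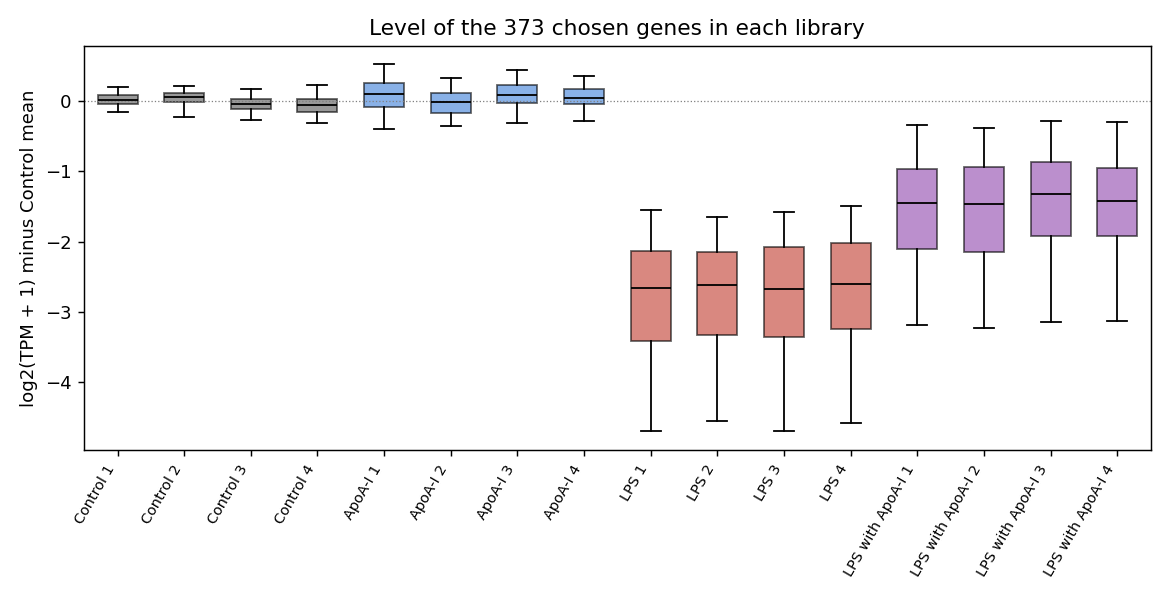
Each box shows, for 1 library, the 373 genes' log2(TPM + 1) minus the gene's Control mean (line, median; box, quartiles; whiskers, 5th to 95th percentile). The medians are between -2.68 and -2.60 in LPS and between -1.47 and -1.32 in LPS with ApoA-I libraries.

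Across the 373 genes the median level was 31.9 TPM in Control and 34.7 TPM with ApoA-I alone. It was 3.66 TPM under LPS and 10.2 TPM under both agents. The Control level ran from 5.245 to 14701 TPM, with quartiles of 16.3 and 73.2 TPM. The 727 LPS-lowered genes outside the rule had lower Control levels, with a median of 17.8 TPM, and went to 3.07 TPM in LPS and 4.45 TPM in LPS with ApoA-I. The median of all tested genes in Control was 15.8 TPM.

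The fall with LPS had a median of -2.61 log2 units (quartiles -3.31 and -2.06, largest -6.13). The difference between LPS with ApoA-I and LPS had a median of 1.14 log2 units (quartiles 0.95 and 1.46, largest 3.67). Of the 373 genes, 115 lay between 0.8 and 1 log2 unit, 173 between 1 and 1.5, 61 between 1.5 and 2, 21 between 2 and 3, and 3 above 3. In every one of the 4 libraries with LPS and ApoA-I, 257 genes were at least 0.8 log2 units above the LPS mean. For the other 116 at least 1 library fell short of that distance.

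The groups were separate for most of the genes. All 4 LPS libraries lay below all 4 Control libraries in 369 of 373 genes, against 52.8% of all tested genes. All 4 libraries with LPS and ApoA-I lay above all 4 LPS libraries in 360 of 373, against 32.1% of all tested genes. In edgeR, 364 of 364 tested genes were called lower with LPS, against 38.4% of all tested genes, and 363 of 364 higher with both agents than with LPS, where 26.4% of all tested genes were called higher and 51.4% in either direction. A gene could enter the test through the groups where it is high. The rule used both comparisons, so nothing is read from these counts. In 343 of 373 genes the LPS, LPS with ApoA-I and Control groups lay in that order without overlap. The share of all tested genes with this order was not counted. The rule used all of these groups, so nothing is read from this count either.

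**Figure D2:**
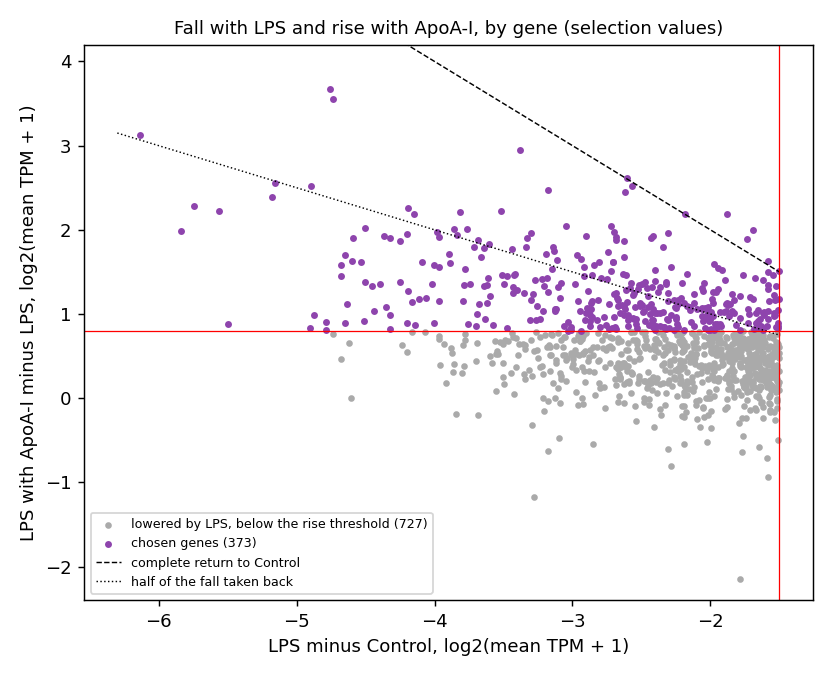
Each point is 1 of 1100 LPS-lowered genes, with the LPS fall on the x axis and the difference between LPS with ApoA-I and LPS on the y axis, both in log2(mean TPM + 1). Red lines are the thresholds, the dashed line is a complete return to Control and the dotted line a return over 50% of the fall. Most of the 373 purple points lie below the dashed line. The axes share the LPS libraries.

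The return was mostly partial. The recovered share of a gene is its difference between LPS with ApoA-I and LPS as a percentage of its difference between Control and LPS, on the log2 scale. It had a median of 45.9% over the 373 genes (quartiles 36.7% and 56.4%), and 18.9% over the 727 others (quartiles 9.55% and 28.0%). With ApoA-I libraries, which did not enter the rule, as the level without LPS, the median was 44.8%. On linear TPM it was 24.8%, because a return in log2 units regains less of the lost transcripts. The recovered share was under 25% in 19 genes, between 25% and 50% in 197, between 50% and 75% in 125, between 75% and 100% in 25 and 100% or more in 7.

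**Figure D3:**
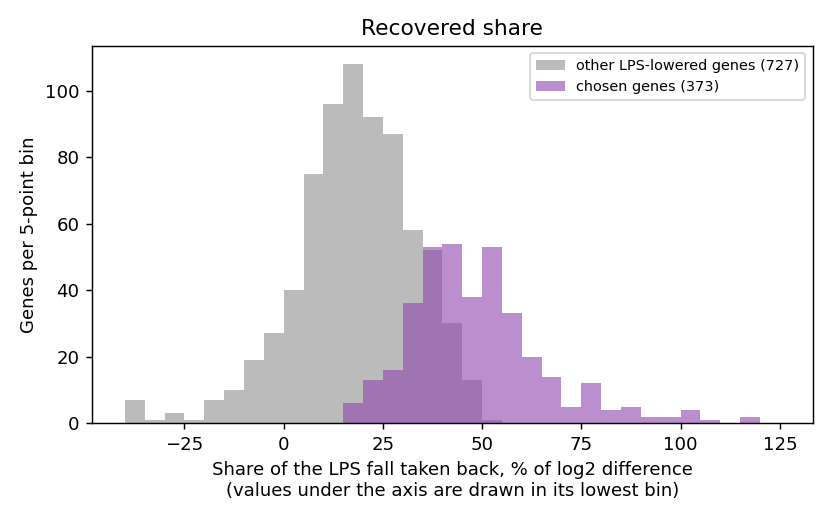
Histogram of the share of the LPS fall that was taken back with ApoA-I, in percent of the log2 difference, for the 373 chosen genes (purple) and the 727 other LPS-lowered genes (grey). The medians are 45.9% and 18.9%, and the distributions overlap from 16.02% to 50.7% because the rule sets a rise and not a share.

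Genes with deeper falls had larger rises but smaller recovered shares. The 48 genes that fell by 4 log2 units or more had a median rise of 1.42 log2 units and a median recovered share of 33.0%. The 76 genes that fell by 3 to 4 log2 units had medians of 1.36 and 39.7%, and the 169 that fell by 2 to 3 had 1.08 and 45.2%. The 80 genes that fell by less than 2 log2 units had 1.04 and 60.5%. A fixed minimum rise asks for a larger share from a gene with a small fall, so part of this order is set by the rule. The fall and the rise share the LPS libraries, so a low LPS value enlarges both. The fall is also the denominator of the share. The chosen genes were 85.7% of the 56 lowered genes in the deepest class, 44.4% of the 171 in the next, 37.4% of 452 and 19.0% of 421.

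The recovered share varied less with abundance. Its median was 53.0% in the 43 genes with 5 to 10 TPM in Control, 47.3% in the 133 with 10 to 30 TPM, and 44.0% in the 126 with 30 to 100 TPM. It was 45.4% in the 61 genes with 100 to 1000 TPM and 51.9% in the 10 genes above.

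Identifiers are given for 4 of the genes: those with the largest and smallest rise and those with the largest and smallest fall. The gene with the largest fall, ENSRNOG00000047734, was at 124.97, 127.96, 124.95 and 99.93 TPM in Control and at 91.9, 90.5, 114 and 121 TPM in ApoA-I libraries. It was at 0.530, 0.510, 1 and 0.820 TPM in LPS and at 12.5, 11.9, 17.5 and 14.02 TPM in LPS with ApoA-I. The libraries with both agents were thus above every LPS library and far below every library without LPS. Its fall was -6.13 and its rise 3.13 log2 units, a recovered share of 51.0% on the log2 scale and 11.2% on linear TPM. It had 29233 counts in Control, 176 in LPS libraries and 3549 under both agents, summed over each group. With both agents the level fell by 2.55 log2 units against ApoA-I alone (SE 0.12, edgeR adjusted p = 2.85e-14). In cells without LPS, ApoA-I gave -0.26 log2 units and no call (edgeR adjusted p = 0.196). There was no call in 24 of 25 alternatives. The exception left out Control 4 and ApoA-I 4, a pair chosen after the results were known, and gave -0.41 (edgeR adjusted p = 0.0135).

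The gene with the smallest fall, ENSRNOG00000025448, returned to its Control level in TPM. It was at 420, 508, 445 and 501 TPM in Control and at 373, 399, 411 and 468 TPM in ApoA-I libraries. LPS libraries had 158, 139, 166.5 and 195 TPM, and libraries with LPS and ApoA-I had 463, 461, 493 and 474 TPM. The libraries with both agents lay within the Control range and overlapped with 1 ApoA-I library. Its recovered share was 101%. With TMM scaling, edgeR gave -1.08 log2 units for LPS against Control and 1.37 for both agents against LPS. On that scale the rise was larger than the fall, and the fall was under 1.5 log2 units. Against ApoA-I alone, LPS with ApoA-I was higher by 0.53 log2 units (SE 0.08, edgeR adjusted p = 2.72e-06). In limma on log2(TPM + 1) the difference was 0.20 log2 units and did not pass (adjusted p = 0.0538). The rule favours high values in libraries with both agents, so a call in this direction is no independent support. In cells without LPS, ApoA-I gave -0.24 log2 units and no call (edgeR adjusted p = 0.0783), and a call in 6 of 25 alternatives, among them -0.27 without Control 4 and ApoA-I 4 (0.0261).

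The gene with the largest rise, ENSRNOG00000055140, rests on few counts. It was at 67.25, 56.3, 35.3 and 40.7 TPM in Control and at 71.4, 63.2, 66.5 and 53.2 TPM in ApoA-I libraries. In LPS libraries it was at 0, 1.93, 0 and 1.59 TPM, and in LPS with ApoA-I libraries at 26.1, 25.04, 24.4 and 16.4 TPM. No group with LPS overlapped another. Behind these values are 2 counts in all 4 LPS libraries and 65 where both agents were given, with 124 counts in Control and 132 with ApoA-I alone. Per library total, LPS with ApoA-I was 30.3 times LPS. The exact 95% interval from the counts is 8.06 to 256. It shows how loosely 2 counts fix the ratio and covers counting error only, and it is no test, since this rise chose the gene. Against ApoA-I alone its difference was -0.93 log2 units (SE 0.32, edgeR adjusted p = 0.0141). The call was lost without ApoA-I 1 (edgeR adjusted p = 0.0548) and without LPS with ApoA-I 4 (edgeR adjusted p = 0.0544), and ApoA-I against Control gave 0.21 log2 units with no call (edgeR adjusted p = 0.771), or 0.27 without Control 4 and ApoA-I 4 (0.734).

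The gene with the smallest rise, ENSRNOG00000067120, was at 49.1, 52.2, 46.6 and 45.65 TPM in Control and at 52.0, 48.0, 55.2 and 56.2 TPM in ApoA-I libraries. It was at 5.72, 5.57, 4.80 and 5.67 TPM in LPS and at 9.92, 9.28, 11.8 and 9.86 TPM in LPS with ApoA-I. The LPS libraries were lowest and those with both agents next, with 0.80 log2 units between the means and a recovered share of 27.3%. Among all 373 genes, 13 had overlap between these groups. With both agents the level fell by 2.02 log2 units against ApoA-I alone (SE 0.07, edgeR adjusted p = 6.61e-17). In cells without LPS, ApoA-I gave 0.06 log2 units and no call (edgeR adjusted p = 0.682), or 0.0014 without Control 4 and ApoA-I 4 (0.995).

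**Figure D4:**
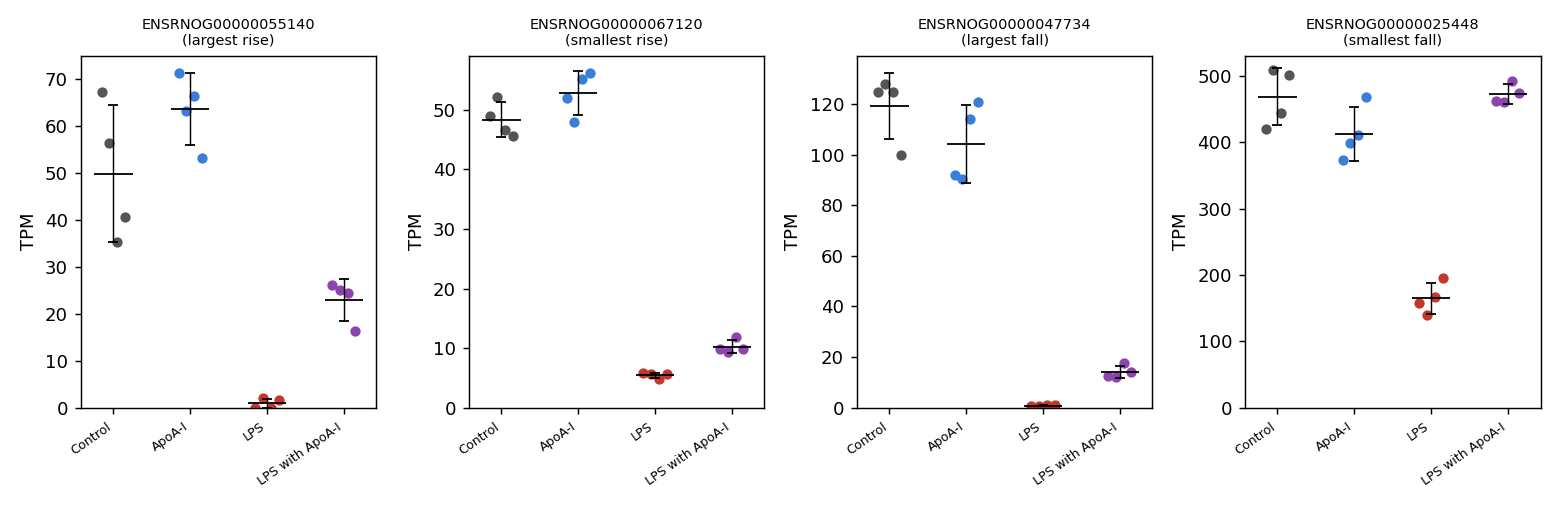
TPM of the 4 genes in each library (points), with the group mean (long line) and SD (error bar, n = 4), on linear axes from 0. Libraries with LPS and ApoA-I reach 461 to 493 TPM for the gene with the smallest fall, inside the Control range of 420 to 508, and 11.9 to 17.5 TPM for the gene with the largest fall, whose Control range is 99.9 to 128.

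Genes just inside and just outside the thresholds had similar values. The 3 closest inside the rise threshold had 0.80, 0.80 and 0.81 log2 units, and the 3 closest outside 0.79 each. At the threshold for the fall the nearest were -1.503, -1.505 and -1.507 inside and -1.49 each outside. At the Control threshold they were 5.245, 5.285 and 5.43 TPM inside and 4.76, 4.73 and 4.66 TPM outside.

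The comparison of both agents with ApoA-I alone asked how far the genes stayed below the level without LPS when ApoA-I was in the medium of both groups. The ApoA-I libraries did not enter the rule. The libraries with both agents did, and the rule favours high values in them. It also asked for a fall with LPS, which favours lower levels in a group with LPS than in one without. Nothing is therefore read from the counts in this comparison or from its p-values for single genes. Of the 364 tested genes, 336 were lower in LPS with ApoA-I, where 34.8% of all tested genes were called lower (edgeR's quasi-likelihood test, adjusted p under 0.05). A further 23 were not called and 5 were higher, where 34.5% of all tested genes were called higher. The median was -1.21 log2 units (quartiles -1.88 and -0.71), against -0.01 over all tested genes. In either direction 341 genes were called, against 69.4% of all tested genes. The difference was over 1 log2 unit in 222 of the 336 genes and over 2 log2 units in 85.

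Among the 723 tested LPS-lowered genes outside the rule, 720 were lower in the same comparison, 589 of them by over 1 log2 unit, with a median of -1.57. The part of the LPS response that was kept with ApoA-I, the difference between LPS with ApoA-I and ApoA-I as a percentage of that between LPS and Control, had a median of 56.0% in the 373 genes (quartiles 45.5% and 64.4%). In the 727 others it was 80.0% (quartiles 70.9% and 89.0%). The rule used 3 of these 4 groups, so the gap between the 2 sets is a description.

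The 5 genes called higher than in ApoA-I had recovered shares of 85.2% to 116% and differences of 0.20 to 0.53 log2 units (edgeR's largest adjusted p = 0.0497). The count depended on the scaling: with library totals 1 of the 364 genes was called higher and with limma on log2(TPM + 1) none. The rule favours calls in this direction, since it asked for high values with both agents. The number called in either direction was 353 with library totals and 355 with limma, where 8257 and 8410 of all tested genes were called.

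In TPM, libraries with LPS and ApoA-I lay below every Control library in 347 of the 373 genes, against 47.2% of all tested genes. In the other 26 the groups overlapped or LPS with ApoA-I was higher. The rule used both groups. Below every ApoA-I library they lay in 353 of the 373, against 50.1% of all tested genes. The rule asked for a fall with LPS, so nothing is read from these counts.

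The mean of LPS with ApoA-I was at or above the Control mean in 7 genes. In 1 of them all 4 libraries with both agents lay above all Control libraries, where 17.5% of all tested genes did so. That gene was at 160, 153, 147 and 153 TPM in Control and at 202, 189, 208 and 168 TPM in ApoA-I libraries. It was at 44.1, 42.2, 48.5 and 46.7 TPM in LPS and at 166, 171, 189 and 161 TPM in LPS with ApoA-I. The last group lay just above Control and overlapped with ApoA-I alone.

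ApoA-I against Control asked whether ApoA-I moved these genes in cells without LPS. Few passed the test. Of the 364 tested genes, 22 were called (6.04%), where 4.27% of all tested genes were (edgeR, adjusted p under 0.05). Of these, 11 were higher, where 2.50% of all tested genes were called higher, and 11 lower, where 1.77% were called lower. Rises were 0.23 to 0.56 log2 units and falls 0.21 to 0.76, so none reached 1 log2 unit. The share called was near that of all genes. In TPM, all 4 ApoA-I libraries lay above all 4 Control libraries in 42 of the 373 genes (11.3%), against 5.96% of all tested genes, and below them in 9 (2.41%), against 1.55%. Without Control 4 and ApoA-I 4, 67 genes were higher without overlap (18.0%, against 13.4% of all tested genes) and 47 lower (12.6%, against 5.94%). The Control libraries entered the rule and the ApoA-I libraries did not.

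The most abundant gene was among those called lower, with a log2 fold change of -0.42 (SE 0.07, edgeR adjusted p = 0.00174). It was called in all 25 alternatives run, with -0.47 to -0.29 log2 units and adjusted p up to 0.0434, and it had -0.44 log2 units without Control 4 and ApoA-I 4. Among the called genes, the largest decrease with ApoA-I alone was in a gene that went from 6.85 ± 0.623 to 4.16 ± 0.495 TPM (SD, n = 4 each). Its log2 fold change was -0.76 with an SE of 0.12 (edgeR adjusted p = 0.00104), or -0.86 without Control 4 and ApoA-I 4 (0.000172). The largest increase among the called genes was in a gene that went from 18.0 ± 3.39 to 28.1 ± 6.23 TPM (SD, n = 4 each). This gene had a log2 fold change of 0.56 and an SE of 0.14 (edgeR adjusted p = 0.029), or 0.79 without those libraries (0.000512). Its Control libraries ran from 14.9 to 22.3 TPM and its ApoA-I libraries from 21.6 to 36.5 TPM, so the groups overlapped. The smallest adjusted p, 0.000286 in edgeR, belonged to a gene that went from 30.7 ± 1.83 to 46.5 ± 2.32 TPM (SD, n = 4 each; log2 fold change 0.53, SE 0.07). Without those libraries it had 0.60 log2 units (edgeR adjusted p = 2.59e-05). In LPS with ApoA-I that gene was at 31.0, 31.6, 34.9 and 29.7 TPM, a recovered share of 103%, and below its level with ApoA-I alone.

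The number of calls in ApoA-I against Control was not stable. Nor was that of all tested genes, of which 508 were called. It was 36 with DESeq2, where 806 of all tested genes were called, and 8 in a fit to the 8 Control and ApoA-I libraries, where 94 were. Without Control 1 it was 13 (284 of all tested genes), without Control 3 it was 9 (202), without ApoA-I 1 it was 13 (186), and without Control 4 it was 35 (775). Without Control 4 and ApoA-I 4 together, an alternative chosen after the results were known, it was 49 (990), among them 21 of the 22. The balance of directions moved with the scaling, from 11 higher and 11 lower to 14 and 5 with library totals and to 14 and 4 with limma on log2(TPM + 1). Of the calls over all tested genes, 58.5% were higher with TMM, 83.1% with library totals and 81.6% with limma. Over all 364 genes the median log2 fold change was -0.01 with TMM, 0.05 with library totals and 0.06 with limma. Over all tested genes it was -0.00028, 0.06 and 0.06.

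Among the 723 other LPS-lowered genes, 45 were called in ApoA-I against Control (6.22%, against 4.27% of all tested genes). Of these, 5 were higher (0.69%, against 2.50%) and 40 lower (5.53%, against 1.77%). The median over the 723 genes was -0.09 log2 units. With library totals 7 were higher and 12 lower, where 83.1% of the calls over all tested genes were higher. The difference between the sets was not tested.

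**Figure D5:**
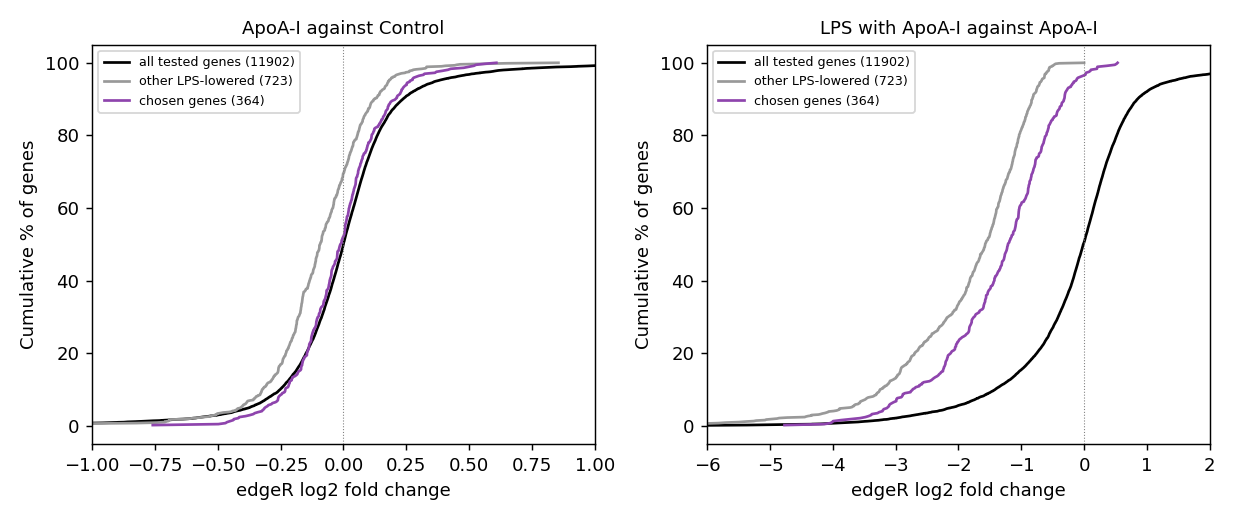
Cumulative percent of genes (y) against edgeR's log2 fold change (x) for ApoA-I against Control (left) and both agents against ApoA-I alone (right), for the 364 tested chosen genes, 723 other LPS-lowered genes and 11902 tested genes. On the left the chosen genes follow all genes, with a median of -0.01, and on the right they lie between all genes and the other lowered genes, with medians of -1.21, -0.01 and -1.57.

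The 11 genes called higher with ApoA-I alone had a median recovered share of 57.0% (16.02% to 109%), and the 11 called lower had 38.7% (21.3% to 50.3%). By class of recovered share, the median difference between ApoA-I and Control in TPM was 0.03 log2 units in the 19 genes under 25% and 0.04 in the 197 between 25% and 50%. It was 0.07 in the 125 between 50% and 75%, 0.22 in the 25 between 75% and 100% and 0.28 in the 7 at 100% or more. Both quantities use the Control libraries, and a lower Control level raises both.

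The interaction, which is the effect of ApoA-I with LPS minus its effect without LPS, was called in 361 of the 364 tested genes, where 41.0% of all tested genes were called in either direction (edgeR, adjusted p under 0.05). All 361 were positive, where 20.8% of all tested genes were called positive and 20.2% negative. The effect with LPS chose the genes, so nothing is read from this count.

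Within groups the genes tended to move together. Among libraries with LPS and ApoA-I, replicate 3 was the highest of the 4 for 185 of the 373 genes and replicate 1 the lowest for 150. Among LPS libraries, replicate 4 was the highest for 170, and among ApoA-I libraries replicate 2 was the lowest for 196. The median recovered share was 42.6%, 44.0%, 49.0% and 45.8% in the 4 libraries with both agents. The median of all tested genes against the Control mean moved the same way in LPS with ApoA-I 3, LPS 4 and ApoA-I 2. It was not lowest in LPS with ApoA-I 1. Among libraries with both agents this median was -0.234 log2 units in replicate 3, -0.266 in replicate 1, -0.272 in replicate 2 and -0.252 in replicate 4. It was -0.31 in LPS 4 and -0.40 to -0.41 in the other LPS libraries, and -0.02 in ApoA-I 2 and 0.05 to 0.14 in the other ApoA-I libraries. Its part in these orders was not tested. Without LPS 4 the rule chose 417 genes, among them 355 of the 373, and without LPS with ApoA-I 3 it chose 357, of which 346 were among the 373.

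The genes' spread between replicates was largest under LPS. The median SD over 4 libraries of log2(TPM + 1) was 0.124 in Control libraries and 0.131 with ApoA-I alone for the 373 genes, 0.170 under LPS and 0.132 under both agents. For all tested genes it was 0.130, 0.147, 0.128 and 0.0999. For the 727 other LPS-lowered genes it was 0.137, 0.158, 0.159 and 0.132 in the same order, so a larger spread under LPS than in Control was not particular to the 373.

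Some of the genes rest on very few counts. The 9 that were not tested had 9 to 92 counts over all 16 libraries, with Control means of 5.245 to 46.6 TPM. Their effective length in Control, taken as counts per TPM and set against the median tested gene, was 0.00118 to 0.107, so few reads gave a high TPM. The highest recovered share, 118%, belongs to these: its Control libraries were listed at 0, 38.2, 148 and 0 TPM, from 5 counts in all, and its LPS libraries at 0, 55.0, 0 and 0 TPM from 1 count. Of the 373 genes, 4 had no counts in LPS libraries, all among the 9, and 11 had fewer than 100 counts over the Control libraries. Over all 373 genes the median relative length was 0.845, against 1.03 in the 727 others. Counts that were not whole numbers, which arise where reads are divided between genes, occurred in 24 of the 373 genes (6.43%), against 9.02% of tested genes.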

How the data were processed

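The authors deposited expected counts per gene and TPM values per gene, 1 column for each of 16 libraries. The submitters' processing notes give RSEM 1.3.1, STAR 2.7.10b and cutadapt 1.8.1 without their roles, and name the mouse build mm10, although gene identifiers are of the Ensembl rat series. The rat annotation behind the counts is one detail not given in the sources used here, and reads shared by similar genes could affect single genes. Of the deposited counts, 3.24% were not whole (tolerance 0.005). Counts were rounded, filtered with filterByExpr (minimum count 10) and fitted over all 16 libraries with 1 mean per group, scaled by TMM, using edgeR 4.0.16 (R 4.3.3) and its quasi-likelihood test, which left 12 residual degrees of freedom. Benjamini-Hochberg adjustment ran over 11902 genes and the threshold was 0.05. Dividing the size of a log2 fold change by the square root of F gave its SE. The rule and the recovered share used TPM with a pseudocount of 1. The fit was also run on counts simulated with changes of 1 log2 unit. That is larger than any ApoA-I against Control call among the chosen genes, so the simulation does not bear on calls of their size.

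The genes and comparisons were chosen with earlier results of these data known. Of the genes, 4 were named by a rule on rise and fall. Other genes described without an identifier, the most and second most abundant and the extremes of single quantities, were picked after their values were seen. The planned gene lists and cell type markers could not be applied without symbols. Alternatives were DESeq2 1.42.0, limma 3.58.1 on log2(TPM + 1) and log2(TPM + 0.1), other scalings, no filter, only the groups compared, the replicate number as a block, other thresholds of the rule, and leaving out each library.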

Additional observations from a re-analysis of the deposited data

Results flagged for a closer look

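The values of 2 of the 4 identified genes lay far from the others of their group in 1 library. ENSRNOG00000067120 was at 4.80 TPM in LPS 3, with the other LPS libraries at 5.57 to 5.72 TPM. ENSRNOG00000047734 was at 99.9 TPM in Control 4, with the other Control libraries at 124.95 to 127.96 TPM. Chance alone sets a library this far apart in about 1 of 20 groups of 4. Over all 373 genes and 4 groups, 94 of 1487 sets with any spread (6.32%) had such a library, most often LPS 4 with 14 and Control 2 with 13.

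In edgeR's interaction, 361 of the 364 tested genes were called, where 41.0% of all tested genes were. The rise that chose the genes is part of the interaction, so nothing is read from this count or from the values of single genes. Among the identified genes the interaction was 4.35 log2 units for ENSRNOG00000047734, 4.30 for ENSRNOG00000055140, which has 2 counts in LPS libraries, 1.62 for ENSRNOG00000025448 and 0.71 for ENSRNOG00000067120.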

How the results depend on the processing

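In all 25 alternatives, including those that leave out 1 library, the chosen genes called numbered 335 to 355 in LPS with ApoA-I against ApoA-I (341 reported). They numbered 362 to 367 in LPS against Control (364) and 357 to 364 in LPS with ApoA-I against LPS (363). Of all tested genes, in the same order, 7904 to 8410 (8255 reported), 8602 to 9202 (8896) and 5685 to 6340 (6114) were called. With only the 8 libraries compared, the 362 and 357 called were all of the chosen genes tested. Only ApoA-I against Control moved by over 1.5 times from its 22: to 36 with DESeq2, 12 with limma on log2(TPM + 0.1), 8 with only the 8 libraries of the 2 groups, 49 without Control 4 and ApoA-I 4 together (chosen after seeing the data), and 9 to 35 without 1 library. All tested genes moved as well, from 508 calls to 806, 238, 94, 990 and 186 to 775. With the replicate number as a block the calls were 29 in ApoA-I against Control and 341, 363 and 361 in the other comparisons, in the order above. Of all tested genes the block gave 469 calls in ApoA-I against Control, against 508 without it. It gave 8231, 8850 and 6075 in the other comparisons. Same-numbered libraries of different groups did not deviate together (24 pairs, correlations of -0.18 to 0.18, 3 above 0.1), and a library's best match in another group had its own number in 13 of 48 cases, so the numbers were not used as pairs. The rule chose 612 genes with a pseudocount of 0.1 and 579 with a rise threshold of 0.6; on CPM with TMM scaling it chose 333, of which 266 were among the 373, and without 1 library 357 to 417. The median recovered share of 45.9% became 49.2% with a pseudocount of 0.1, 24.8% on linear TPM and 50.4% on CPM with TMM scaling; without 1 library it was 45.2% to 46.6%. Of the identified genes, ENSRNOG00000055140 lost its call in LPS with ApoA-I against ApoA-I without ApoA-I 1 (edgeR adjusted p = 0.0548), without LPS with ApoA-I 4 (0.0544) and in limma on log2(TPM + 0.1) (0.0848), with a range of 0.000367 to 0.0848 over 25 alternatives. ENSRNOG00000025448 lost its call there in limma on log2(TPM + 1) (0.20 log2 units, adjusted p = 0.0538) and on log2(TPM + 0.1) (0.20, adjusted p = 0.0553), against 0.53 reported. No direction of an identified gene was reversed. Changes in genes with few counts in LPS libraries are limited by depth.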
